A study of Mus musculus with 30 samples.

Results

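Chromatin accessibility at 6 mouse genes that make or sense extracellular adenosine and ATP (Entpd1, Nt5e, Enpp1, Adora2a, Adora2b and P2rx7) was examined in CD4+ T cells by ATAC-seq, in which the Tn5 transposase cuts open DNA and reads pile up into peaks. The peaks were those of a deposited table of 26 libraries on mm10 whose nearest protein-coding gene body, within 100 kb, belonged to 1 of these genes. They numbered 62 of 69316 peaks: 16 at P2rx7, 14 at Entpd1, 14 at Nt5e, 12 at Enpp1, 5 at Adora2a and 1 at Adora2b. No filter on low values was applied, so all 62 were tested, and 60 had a mean score of at least 10. A score is the deposited read count of a peak divided by a factor for its library.

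ATP leaks from stressed and dying cells and acts on T cells as a danger signal. Entpd1 (CD39) strips phosphates from ATP and ADP to give AMP, Enpp1 cleaves ATP to AMP and pyrophosphate, and Nt5e (CD73) turns AMP into adenosine. Adenosine acts through the receptors Adora2a and Adora2b, which raise cyclic AMP and dampen T cell activation, while P2rx7 is an ion channel that ATP opens. Regulatory T cells (Treg), the suppressive CD4+ lineage specified by the transcription factor Foxp3, are known to carry CD39 and CD73 on their surface.

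The cells came from mouse lymph nodes and spleen and were freshly sorted, with 2 libraries in each of 13 groups. Mice with a Foxp3-IRES-hCD2 reporter (C57BL6/J) gave 6 groups: wild-type Treg (CD4+hCD2+), conventional T cells (Tconv, CD4+hCD2-), central Treg (cTreg, CD4+hCD2+CCR7hiCD62LhiCD44lo), effector Treg (eTreg, CD4+hCD2+CCR7loCD62Llo), naive T cells (Tnaive, CD4+hCD2-CCR7hiCD62LhiCD44lo) and effector T cells (Teff, CD4+hCD2-CCR7loCD62Llo). Treg of Foxp3-IRES-hCD2.Batf-/- mice (BATFKO) lacked BATF, an AP-1 family transcription factor. Treg carrying the Foxp3R397W allele came from Foxp3R397W-IRES-hCD2/Foxp3-IRES-GFP animals, sorted as CD4+hCD2+GFP-, and were compared with the Foxp3WT-IRES-hCD2/Foxp3-IRES-GFP control. Double-knockout (DKO) Treg, Foxp3KO-IRES-hCD2.Batf-/-, were given a retrovirus (RV) that was empty (mock) or carried Foxp3, BATF or both, and were sorted as CD45.2+ and CD45.1- cells positive for GFP, Thy1.1, CD4 and hCD2. These 4 groups all lack both genes apart from what the virus supplies, and unlike the other groups they were transduced before the sort. Their column names also carry the word vivo, which is not explained in the labels used here. The Foxp3R397W, control and DKO libraries were labelled omniATAC and the others ATAC, so a level in the first set against the second cannot be told apart from the protocol. Nothing in the labels says that replicates came from separate animals, so a p-value here reflects the variation among the libraries sequenced, and this variation may be technical.

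Library names conflicted between this table and a second deposited table of 22 libraries. The tables share 18 libraries, of which 12 carry other names there: the libraries called eTreg, cTreg, Tnaive, Teff, Foxp3R397W control and Foxp3R397W here are called Foxp3R397W control, Foxp3R397W, Foxp3KO control, Foxp3KO, cTreg and eTreg in that table. The names of the 26-library table were used. Which protocol was used for these 12 therefore depends on the name, but both sides of each comparison share it under either. Under the names used here, a peak at Foxp3 had mean scores of 403 in cTreg, 372 in eTreg, 5.17 in Tnaive and 7.83 in Teff. The same peak had 379 in wild-type Treg and 9.27 in Tconv. The libraries at 5.17 are called Foxp3KO control, a wild-type Treg group, in the other table. A peak at Ccr7, the receptor used in the sort, had 438 in cTreg against 137 in eTreg and 552 in Tnaive against 176 in Teff. It had 605 in the Foxp3R397W control and 808 in Foxp3R397W, the libraries called cTreg and eTreg in the other table. The comparisons of wild-type Treg, Tconv, BATFKO and DKO libraries do not involve a renamed library; all the others do, and are results for the libraries so named. Reads in peaks ranged from 3716499 to 25462278 a library, with a median of 9447877. A peak at Batf held 523 reads in wild-type Treg and 0 in BATFKO, and another 133 and 0, and across the 8 DKO libraries their scores did not exceed 12.3 and 3.07, against at least 265 and 41.8 in the 16 libraries with an intact Batf. A Foxp3 peak was open in DKO libraries too (mean score 892 with mock), which does not check the knockout allele. No peak lay at the defining genes Cd79a or Ms4a1 (B cells) or at Csf1r (myeloid cells). The B cell gene Pax5 had 4 peaks, however, and 3 of the 4 myeloid genes listed had 17, so signal at such genes was not absent.

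The start sites that lie under a peak are shown as sequence because they separate the loci before any comparison. Each run is the 250 bases before a start on GRCm38.p6 (the sequence of mm10), from RefSeq, read along the gene with CpG dinucleotides in capitals. Promoters of 5 of the 6 genes were matched.
Nt5e, chr9:88327359-88327608, plus strand: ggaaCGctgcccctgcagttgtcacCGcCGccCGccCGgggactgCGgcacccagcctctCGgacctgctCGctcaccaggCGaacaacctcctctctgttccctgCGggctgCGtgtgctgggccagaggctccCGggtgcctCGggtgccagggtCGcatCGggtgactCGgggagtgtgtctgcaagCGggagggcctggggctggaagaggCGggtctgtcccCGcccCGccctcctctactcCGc
Entpd1, first start, chr19:40612116-40612365, plus strand: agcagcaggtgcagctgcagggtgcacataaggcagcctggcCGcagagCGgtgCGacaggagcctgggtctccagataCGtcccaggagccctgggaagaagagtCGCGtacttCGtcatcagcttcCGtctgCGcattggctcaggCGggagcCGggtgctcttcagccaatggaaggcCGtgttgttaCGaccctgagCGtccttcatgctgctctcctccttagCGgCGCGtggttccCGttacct
Adora2b, chr11:62248734-62248983, plus strand: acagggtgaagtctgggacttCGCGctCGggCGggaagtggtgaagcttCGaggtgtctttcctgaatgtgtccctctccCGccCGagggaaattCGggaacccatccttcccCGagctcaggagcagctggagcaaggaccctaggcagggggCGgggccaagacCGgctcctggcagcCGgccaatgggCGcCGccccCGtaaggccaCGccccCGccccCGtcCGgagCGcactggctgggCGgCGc
P2rx7, second start, chr5:122650133-122650382, plus strand: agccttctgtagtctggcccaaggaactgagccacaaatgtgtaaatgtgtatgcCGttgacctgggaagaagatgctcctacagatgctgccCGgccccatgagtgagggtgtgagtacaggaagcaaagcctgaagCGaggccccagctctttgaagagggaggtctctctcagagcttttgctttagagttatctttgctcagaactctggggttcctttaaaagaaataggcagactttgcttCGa
The first 3 hold 21, 18 and 22 CpGs at 72%, 62.4% and 69.6% GC, against medians of 6 CpGs and 52.4% over all 32851 promoters of the same table. The second P2rx7 start holds 4 CpGs at 50% GC. Enpp1 (17 CpGs, 61.2% GC) has no peak over its window, and its nearest peak lies 0.4 kb inside the gene. Of 5 motifs searched on both strands, AP-1 (TGANTCA), forkhead (TGTTTAC), the cyclic AMP response core (ACGTCA), Runx (TGTGGT) and Ets (CAGGAAG), none was in the Nt5e, first Entpd1 or Adora2b window. The second P2rx7 window held CAGGAAG 131 bases before the start, a motif found in 10.8% of all promoters. ACGTCA, in 6.47% of promoters, occurred once at the second Entpd1 start and once at Enpp1, TGTGGT (14%) once at Enpp1, and TGANTCA (6.75%) once at the first P2rx7 start. TGTTTAC, in 3.17% of promoters, was in none of these windows.

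Of the 62 peaks, 42 overlapped a gene body and 54 lay within 20 kb of one. All 14 Entpd1 peaks and 12 of 16 P2rx7 peaks lay in the gene, whereas only 7 of 14 Nt5e peaks did. The Entpd1 peak at its first start also overlaps the neighbouring gene Tctn3 and was the strongest, with scores from 581 to 1112 across the 26 libraries. Mean scores over all libraries were above the table's median of 48.6 for 41 of 62. The peaks farthest from their gene were 2 Nt5e peaks at 85653 and 53932 bp (mean scores 339 and 64.8). Just outside the rule, peaks 7966 bp from Nt5e and 15143 bp from P2rx7 belonged to Snx14 (mean score 401) and P2rx4 (475). Distances below are from a gene's first start, along the gene.

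**Figure D1:**
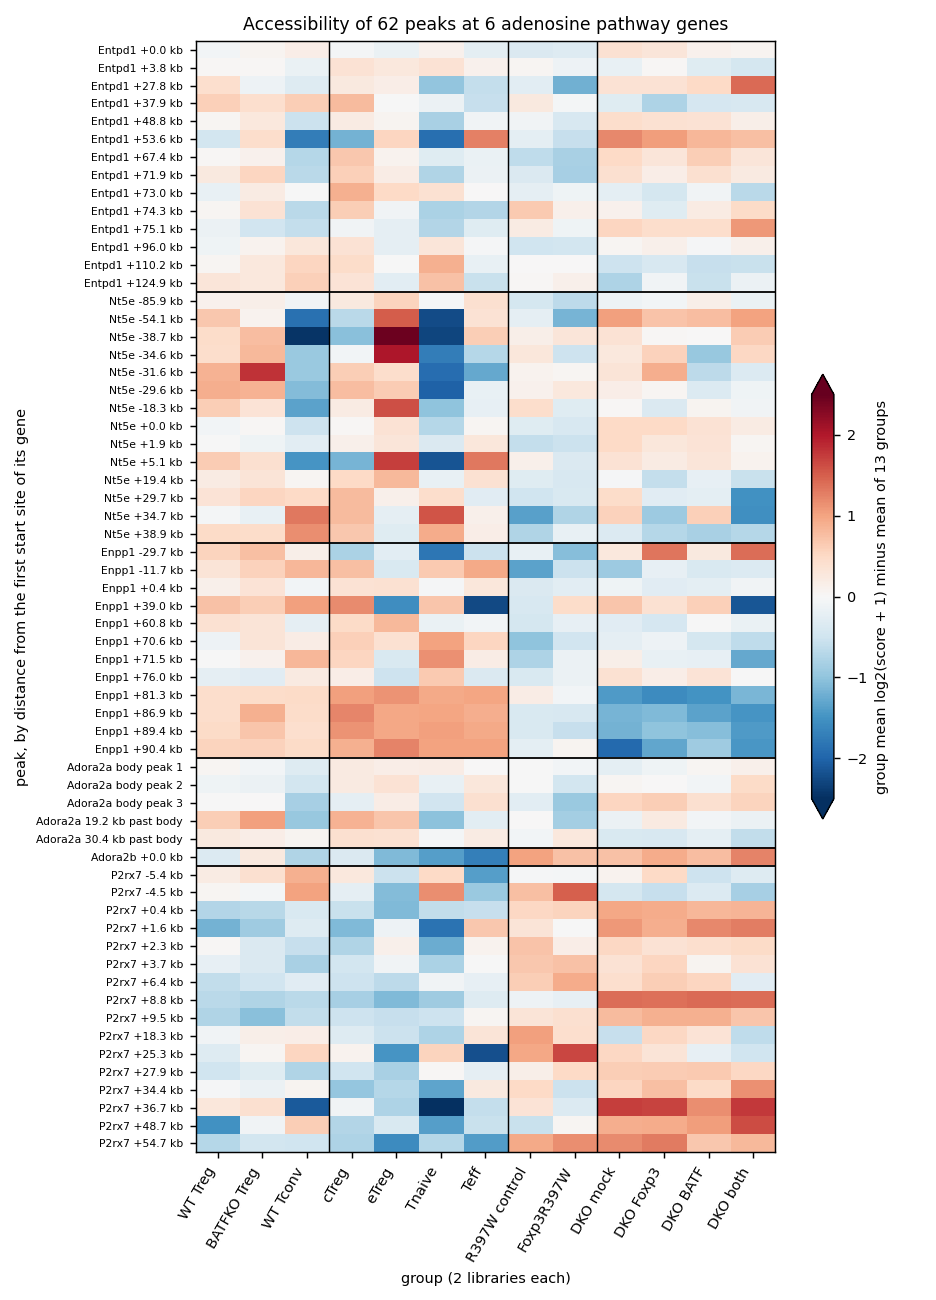
Heat map of the 62 peaks (lines, ordered by gene and by distance from the start in kb) across the 13 groups (columns); colour is the group mean of log2(score + 1) minus the peak's mean over groups. The Nt5e peak at +5.1 kb is high in eTreg and Teff and low in Tnaive and Tconv. The Enpp1 peak at +39.0 kb shows its lowest values in Teff, eTreg and DKO Treg given both factors.

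Between wild-type Treg and Tconv, parts of Nt5e, Entpd1 and Adora2a were more open in Treg, and P2rx7 changed in both directions. A peak was called when limma's adjusted p over all 69316 peaks was below 0.05. By that rule 20 of 62 peaks (32.3%) were called, 16 higher and 4 lower, where 20% of all peaks were called (10.1% higher and 9.92% lower). The calls fell at Nt5e (7 higher, 1 lower), Entpd1 (4 higher), P2rx7 (2 and 2), Adora2a (2 higher) and Enpp1 (1 and 1). The median log2 change was 0.17 over the 62 peaks and 0.01 over all peaks. Leaving out the first Treg library left 11 calls, and leaving out the second Tconv library left 13. Summed scores at erythroid genes (2 of 2 with peaks) were 176 to 229 in wild-type Treg and 75 to 103 in Tconv. The strongest Gata1 peak had mean scores of 64.8 and 3.09, and the strongest Hbb-bt peak 57.6 and 41.9, so the 2 genes did not differ alike. Summed scores at Pax5, a B cell gene, were 165 to 191 and 84.1 to 86.5. The naive or central T cell list (3 of 3 genes with peaks) summed to 6758 to 7781 in wild-type Treg and 9070 to 9171 in Tconv. Neither group was split by CCR7 and CD62L, so their content of effector cells may differ. The part of these markers in the result was not tested.

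The central Treg and naive T cell libraries, which share no library with the previous pair, gave 19 calls (30.6%), 18 higher in cTreg and 1 lower, against 16.6% of all peaks (8.80% higher and 7.82% lower). All 8 calls at Nt5e and all 5 at Entpd1 were higher in cTreg, as were 2 at P2rx7 and 1 each at Adora2a and Adora2b, and Enpp1 had 1 in each direction. The peaks called in both comparisons in the same direction numbered 14, which is 70% of the 20 and 73.7% of the 19, and 1 more was called in opposite directions. Over all peaks these shares were 54.8% and 66.1%. The erythroid genes summed to 276 to 291 in cTreg and 72.6 to 83 in Tnaive. Mean scores were 121 and 4.48 at the strongest Gata1 peak and 52.5 and 37.3 at the strongest Hbb-bt peak. The part of these genes was not tested. Without the second cTreg library, 12 peaks were called. Among effector cells, eTreg against Teff, 11 peaks (17.7%) were called, 8 higher and 3 lower, near the background of 17.5% (8.40% higher, 9.07% lower), and 6 or 7 were called when any 1 of the 4 libraries was left out.

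The effector step changed these loci in both lineages, in both directions within a gene. From cTreg to eTreg 19 peaks (30.6%) were called, 8 higher and 11 lower, below the background of 37.1% (19.7% higher, 17.4% lower). From Tnaive to Teff 29 peaks (46.8%) were called, 17 higher and 12 lower, where the background was 40.3% (20.7% and 19.6%). The 14 peaks called in both steps all moved in the same direction, 73.7% of the first set and 48.3% of the second, against 70.9% and 65.1% over all peaks. A direct test of the difference between the steps called 3 peaks (4.84%), all with the lower value in the Treg step, with a background of 3.91% (1.18% higher, 2.72% lower). Leaving out the first eTreg library left 10 of the 19 calls, and the second cTreg library 9. Summed scores of other marker lists moved with these steps. The CD8 T cell list (2 of 2 genes with peaks) went from 539 to 544 in cTreg and 114 to 133 in eTreg, and from 513 to 591 in Tnaive and 51.8 to 70.5 in Teff. The summed score at Pax5 ranged from 58.7 to 93.7 in cTreg, 317 to 322 in eTreg, 25.5 to 44.1 in Tnaive and 249 to 264 in Teff, and the erythroid list (2 of 2) from 276 to 291 in cTreg and 83.1 to 112 in eTreg. At the strongest Gata1 peak the means were 121 in cTreg and 11.1 in eTreg, and at the strongest Hbb-bt peak 52.5 and 45.6. The part of these lists in the results was not tested. In bulk libraries, fewer cells with an open site and less opening per cell cannot be told apart.

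**Figure D2:**
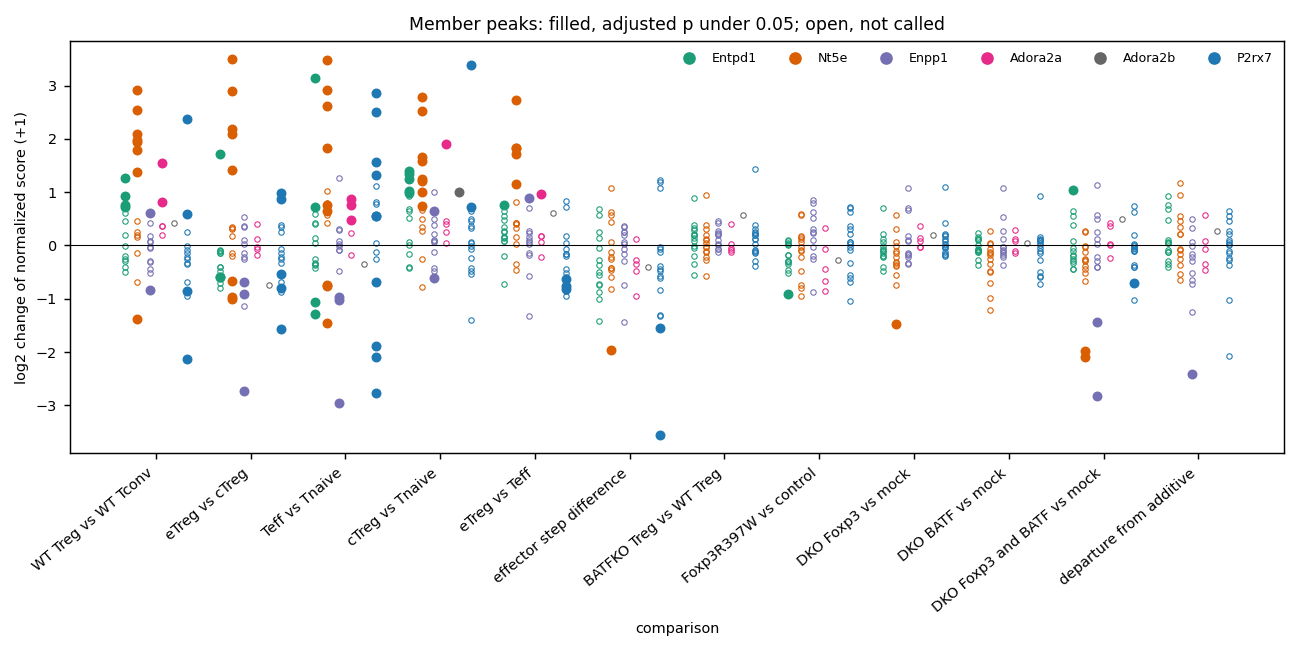
Log2 change of each of the 62 peaks (points, coloured by gene) in each comparison (horizontal axis), with filled points for peaks called at an adjusted p below 0.05. Calls run to both sides in the effector steps, cTreg against Tnaive has 18 higher and 1 lower, and the BATFKO comparison has no filled point.

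Entpd1, the first enzyme of the chain, was open at its start in every group, and its changes lay within the gene. The +27.8 kb peak (chr19:40639925-40640325), its most variable above the table median, scored 78.2 and 98 in wild-type Treg and 49 and 54.5 in Tconv. In cTreg it scored 73.8 and 81.6, in eTreg 84.2 and 63.2, in Tnaive 34.5 and 29.8, and in Teff 40.9 and 45. Every Treg library lay above every conventional library of the 3 pairs. The log2 differences were 0.75 (SE 0.24, adjusted p 0.026) for Treg against Tconv, 1.25 (SE 0.24, 0.00032) for cTreg against Tnaive and 0.75 (SE 0.24, 0.028) for eTreg against Teff. The last was no longer called without the first eTreg library (0.28) or either Teff library (0.16 and 0.084).

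Other Entpd1 peaks differed by lineage, by effector step or by both. The +71.9 kb peak (chr19:40684088-40684488) scored 138 and 123 in cTreg and 40.9 and 63.5 in Tnaive, a log2 difference of 1.34 (SE 0.25, adjusted p 0.00025), and 109 and 96 in wild-type Treg against 57.1 and 50 in Tconv (0.92, SE 0.25, 0.0088). The second of these was lost without the first Treg library (0.085) or the second Tconv library (0.077). The +53.6 kb peak (chr19:40665792-40666192) was higher in both effector groups: 7.66 and 10.4 in Tnaive, 81.9 and 92 in Teff, 20.4 and 11 in cTreg, and 36.6 and 73.7 in eTreg. It rose by 3.14 (SE 0.43, 8e-07) in the conventional step and by 1.72 (SE 0.43, 0.002) in the Treg step, with no overlap between groups in either. The Treg rise was not called without the second eTreg (0.077) or second cTreg library (0.062). The peak was also higher in wild-type Treg (30.6 and 21.4) than in Tconv (21.2 and 4.54), by 1.26 (SE 0.43, 0.037). The Tconv libraries held 13 and 2 reads, and the higher of them nearly reached the lower Treg library. Toward the gene's end, the +124.9 kb peak fell by 1.29 (SE 0.26, 0.00016) from Tnaive (130 and 104) to Teff (59.2 and 37.2). The +96.0 kb peak was lower in eTreg (227 and 249) than in cTreg (342 and 379), a log2 difference of -0.60 (adjusted p 0.015), a call lost without the first eTreg or second cTreg library (0.11 each). In all, 9 of the 14 Entpd1 peaks were called in at least 1 of the 12 comparisons, as were 62.2% of all peaks and 42 of the 62 (67.7%), and the peak at the first start in none.

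Enpp1, the ATP pyrophosphatase, had few changed peaks, but its effector-step losses were large. The +39.0 kb peak (chr10:24672914-24673314; the gene lies on the minus strand) scored 156 and 183 in cTreg, 25.5 and 23.4 in eTreg, 132 and 109 in Tnaive, and 12.2 and 17.6 in Teff. Both effector groups lay far below their resting partners. It fell by 2.74 (SE 0.25, adjusted p 7.9e-10) in Treg and by 2.95 (SE 0.25, 1.1e-10) in conventional cells, and the difference between the steps was 0.20 (SE 0.35, adjusted p 0.88). Wild-type Treg (119 and 129) and Tconv (163 and 143) differed by -0.31 (adjusted p 0.44), which was not called.

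The strongest Enpp1 peak, at +71.5 kb near the 3′ end, was highest in Tnaive (1054 and 825), with 505 and 456 in Teff, 673 and 555 in cTreg and 358 and 289 in eTreg. It fell by 0.96 (SE 0.21, adjusted p 0.00055) in the conventional step and by 0.92 (SE 0.21, 0.00088) in the Treg step. It was also lower in wild-type Treg (453 and 389) than Tconv (653 and 861), a log2 difference of -0.84 (0.0048), a call lost without the second Treg (0.066) or second Tconv library (0.11). The +60.8 kb peak went the other way by lineage: 355 and 384 in eTreg against 199 and 198 in Teff, a log2 difference of 0.89 (SE 0.17, 0.00042). It was higher by 0.64 in cTreg than Tnaive (adjusted p 0.0098; 0.13 without the second cTreg and 0.095 without the second Tnaive library) and by 0.61 in wild-type Treg than Tconv (0.012; 0.11 without the first Treg and 0.14 without the first Tconv library). The peak nearest the start stayed between 143 and 265 in all libraries and was called in no comparison, and 4 of the 12 Enpp1 peaks were called in any.

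Nt5e, whose product makes adenosine itself, had 12 of its 14 peaks called in at least 1 comparison, P2rx7 13 of 16 and Entpd1 9 of 14, where 62.2% of all peaks were. The +5.1 kb peak (chr9:88332462-88332862), inside the gene, was its most variable among those above the table median. It scored 34.5 and 36.3 in Tnaive, 72.9 and 70.5 in cTreg, 411 and 398 in Teff, and 505 and 572 in eTreg, and no groups among the 4 overlapped. It rose by 3.48 (SE 0.25, adjusted p 3e-12) from Tnaive to Teff and by 2.89 (SE 0.25, 2.6e-10) from cTreg to eTreg. The Treg side was higher by 1.0 at rest (SE 0.25, 0.0041), and by 0.41 among effectors (SE 0.25, 0.31), which was not called. Wild-type Treg scored 254 and 249 and Tconv 57.1 and 59.1, a log2 difference of 2.10 (SE 0.25, 2.8e-07).

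Upstream of Nt5e, 6 of 7 peaks were higher in wild-type Treg than in Tconv, and 4 of them had their highest mean of the 4 sorted groups in eTreg. The -54.1 kb peak (chr9:88273277-88273677) scored 6.39 and 14.3 in Tnaive, 27.5 and 34.2 in cTreg, 71.4 and 56.7 in Teff, and 146 and 139 in eTreg, and it was called in all 5 comparisons of these cells, with wild-type Treg (85.5 and 73.5) above Tconv (18 and 9.09) by 2.54 (SE 0.40, 2.6e-05). The -38.7 kb peak, named here after its values were seen, reached 102 and 118 in eTreg against 8.89 and 8.82 in cTreg (a rise of 3.49, SE 0.41, 7e-08) and 30.5 and 30.3 in Teff. In wild-type Treg it held 49 reads against 3 in Tconv, a scaled ratio of 9.56 with a 95% exact counting interval of 3.09 to 48. The -34.6 kb peak (chr9:88292798-88293198) was low in both conventional groups (8.94 and 3.89 in Tnaive, 17.4 and 9.78 in Teff) and scored 92 and 93.6 in eTreg, above Teff by 2.73 (SE 0.47, 9.4e-05). The -29.6 kb peak (chr9:88297811-88298211) opened in cTreg already, with 44.4 and 67.2 against 6.39 and 7.77 in Tnaive (2.79, SE 0.37, 1.8e-06), while eTreg had 34.3 and 71.4 and Teff 20 and 38.2. Here the step differed between lineages: it was 1.83 in conventional cells and -0.14 in Treg, a difference of -1.97 (SE 0.53, adjusted p 0.027). That call was lost without the first eTreg (0.21), second cTreg (0.15), first Tnaive (0.082) or second Teff library (0.21), and under quantile scaling (0.086).

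**Figure D3:**
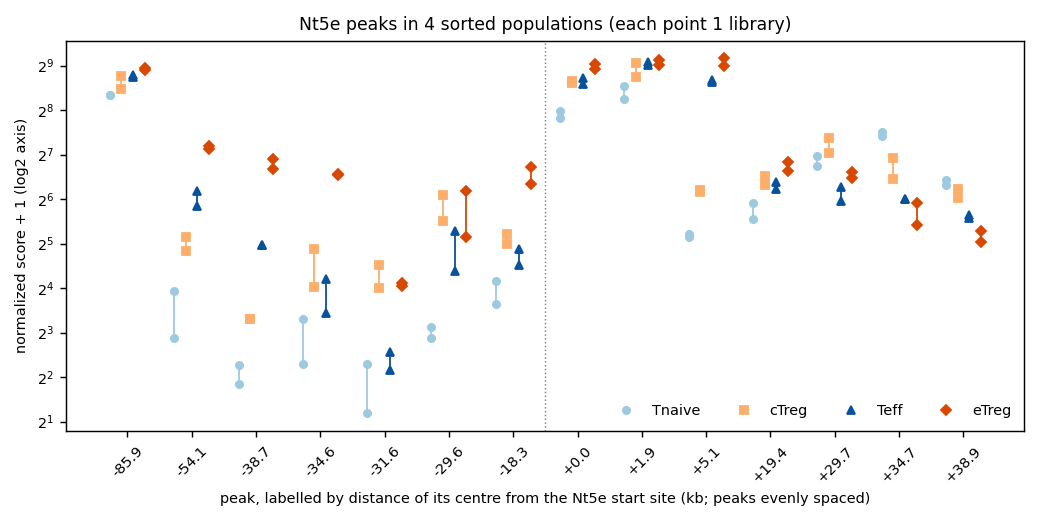
Scores of the 14 Nt5e peaks (log2 axis of score + 1; horizontal axis, peaks in order of distance from the start in kb), with a point for each library of Tnaive, cTreg, Teff and eTreg. The upstream peaks and +5.1 kb are lowest in Tnaive, the promoter and +1.9 kb peaks stay high in all 4 groups, and the +34.7 kb peak is highest in Tnaive.

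The Nt5e start and its 3′ part behaved differently from the upstream peaks. The peak over the CpG-rich start shown above scored 224 and 253 in Tnaive, 389 and 403 in cTreg, 422 and 383 in Teff, and 483 and 521 in eTreg, and Tnaive lay below the others. It rose by 0.76 from Tnaive to Teff (SE 0.17, adjusted p 0.00082) and was higher by 0.74 in cTreg than Tnaive (SE 0.17, 0.0029), with no call from cTreg to eTreg (0.34, 0.13). The strongest peak, at +1.9 kb, was called only from Tnaive (304 and 374) to Teff (541 and 514), by 0.64 (SE 0.19, 0.0085). At +34.7 kb (chr9:88362107-88362507) the order turned: 171 and 181 in Tnaive, 86.2 and 121 in cTreg, 63.6 and 63.6 in Teff, and 42.1 and 59.7 in eTreg. This peak fell by 1.46 (SE 0.29, 0.00014) in the conventional step and by 1.01 (SE 0.29, 0.0057) in the Treg step, and was lower in wild-type Treg (48.9 and 64.3) than Tconv (139 and 157), a log2 difference of -1.38 (SE 0.29, 0.00072). The Treg-step call was lost without the first eTreg or second cTreg library (0.11 each).

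Adora2a, the high-affinity adenosine receptor, was more open in Treg at a downstream peak. This peak lies 19171 bp past the gene's end (chr10:75353963-75354363), and the target of such a distal site is not known from these data. It scored 88 and 65.3 in wild-type Treg and 31 and 20.4 in Tconv, 97.8 and 84.9 in cTreg and 26.8 and 20.7 in Tnaive, and 87.5 and 73.7 in eTreg and 38.3 and 43 in Teff. Treg libraries lay above the conventional ones in each pair. The log2 differences were 1.55 (SE 0.30, adjusted p 0.00027), 1.90 (SE 0.30, 1.8e-05) and 0.97 (SE 0.30, 0.021), the last lost without any 1 of its 4 libraries (0.055 to 0.16). It changed by -0.18 from cTreg to eTreg (0.69) and by 0.76 from Tnaive to Teff (0.041). The strongest Adora2a peak, in the gene body, rose from Tnaive (202 and 237) to Teff (423 and 383), by 0.88 (SE 0.24, 0.004; 0.051 without the first Tnaive library). It was also higher in wild-type Treg (318 and 291) than Tconv (216 and 136), by 0.82 (SE 0.24, 0.014).

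Adora2b, the low-affinity receptor, had a single peak, over its start (chr11:62248813-62249213), and it scored at most 49 in wild-type Treg, Tconv and the 4 groups sorted by CCR7 and CD62L. It scored 31.1 and 35.3 in cTreg, 14 and 18.1 in Tnaive, 18.8 and 19.9 in eTreg, and 13.1 and 11.7 in Teff. The cTreg libraries were above the Tnaive ones by 1.01 (SE 0.34, adjusted p 0.036). That call was lost under quantile scaling (0.092), with edgeR (0.067), in a fit of these groups alone (0.069) and without any 1 of the 4 libraries (0.06 to 0.22). Wild-type Treg, at 23.2 and 49, overlapped Tconv at 22.9 and 27.3. Scores were 56.7 to 112 in the omniATAC libraries, in which the protocol differs too.

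**Figure D4:**
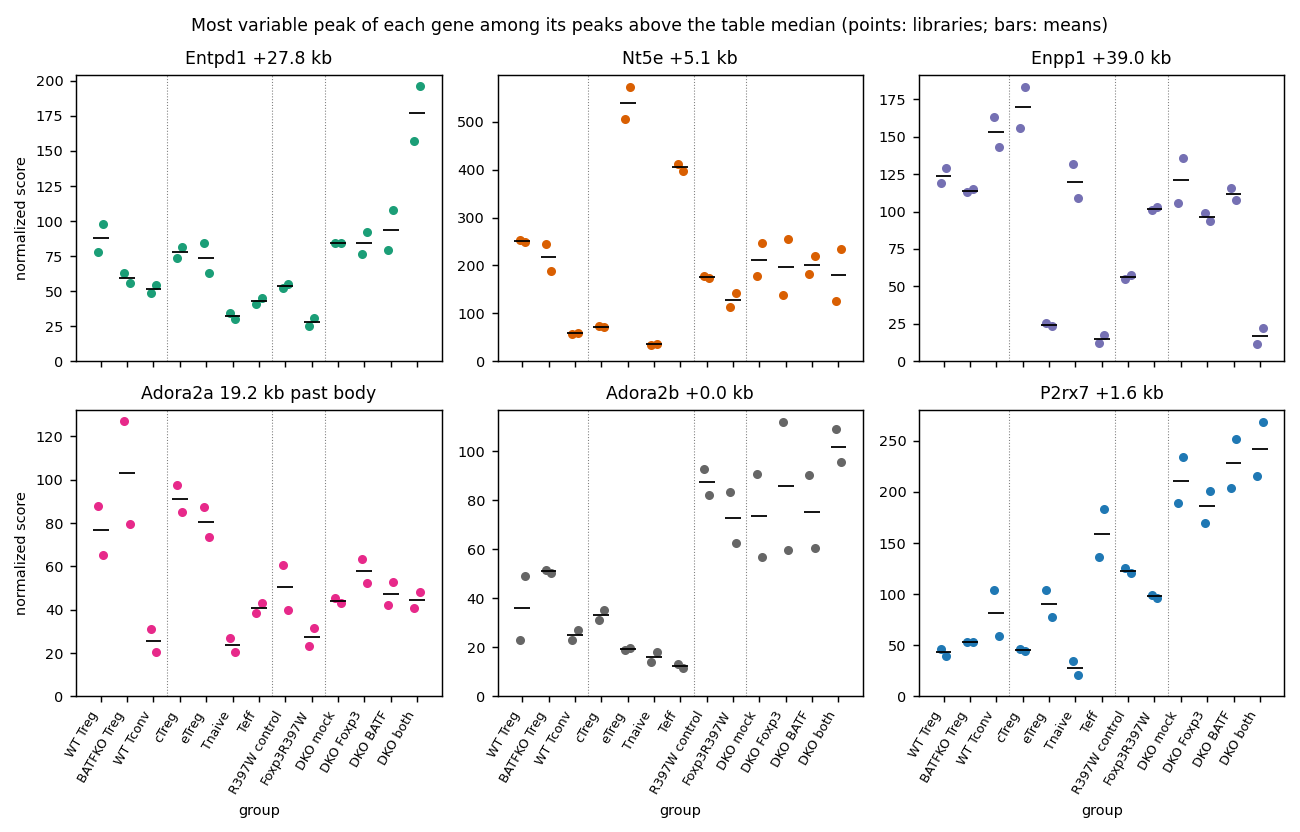
Score of the most variable peak of each gene among its peaks with a mean score above the table median (6 panels, linear axis from 0) in the 13 groups; points are libraries and bars are means of 2 libraries. The Adora2a peak is higher in wild-type Treg, cTreg and eTreg than in Tconv, Tnaive and Teff. The Enpp1 peak is under 26 in eTreg, Teff and DKO Treg given both factors.

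P2rx7, the ATP-gated channel, changed in both directions in the effector step. Of its 16 peaks, 6 were higher and 4 lower in conventional cells, and 2 higher and 3 lower in Treg. Over all peaks 20.7% were called higher and 19.6% lower in the conventional step, and 19.7% and 17.4% in the Treg step. Calls in both directions are therefore not particular to P2rx7. The +1.6 kb peak (chr5:122645316-122645716) scored 34.5 and 20.7 in Tnaive, 136 and 183 in Teff, 46.2 and 44.1 in cTreg, and 104 and 77.2 in eTreg. Teff lay above the other 3 groups. The rise was 2.51 (SE 0.26, adjusted p 4.2e-09) in conventional cells and 0.98 (SE 0.26, 0.003) in Treg, and the steps differed by -1.54 (SE 0.36, 0.011). Treg were below conventional cells in the unsplit pair (46.4 and 39.8 against 104 and 59.1; -0.86, SE 0.26, 0.016) and among effectors (-0.81, SE 0.26, 0.026), but above them at rest (0.73, SE 0.26, 0.047). The neighbouring +2.3 kb peak rose in both steps, by 1.32 (SE 0.22, 1.1e-05) and 0.88 (SE 0.22, 0.0016).

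Deeper in P2rx7 a weak peak at +36.7 kb (chr5:122680401-122680801) was more open in Treg. It scored 20.8 and 28.6 in wild-type Treg against 3.27 and 4.54 in Tconv, and 16 and 22 in cTreg against 0 and 2.59 in Tnaive. These rest on 45 against 4 reads, a scaled ratio of 6.59 (95% exact counting interval 2.4 to 25.2), and on 38 against 2 reads, a ratio of 14.5 (3.76 to 124). Teff, with 28 reads, was above Tnaive by a ratio of 10 (2.53 to 86.9), whereas eTreg (12.2 and 10.5) was not above cTreg, and the steps differed with an adjusted p of 0.00094. The strongest P2rx7 peak, at +9.5 kb, was lower in eTreg (173 and 166) than Teff (261 and 259), a log2 difference of -0.62 (SE 0.17, 0.01; 0.064 to 0.079 without the second eTreg or either Teff library). The +25.3 kb peak fell from 37 and 18.1 in Tnaive to 4.35 and 1.96 in Teff, by 2.76 (SE 0.54, 0.00014). A peak 125 bp past the gene's end was at 1.22 and 3.06 in wild-type Treg and 13.1 and 11.4 in Tconv (4 and 13 reads; ratio 0.18, interval 0.0428 to 0.583); its call was lost in a fit of these groups alone (adjusted p 0.075) and without the first library of either group (0.15 and 0.071).

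Loss of BATF alone called none of the 62 peaks, where 1.49% of all peaks were called by limma (0.0620% higher, 1.43% lower); 3 had an unadjusted p below 0.05, and edgeR also called 0. These were the Entpd1 +27.8 kb peak (63.1 and 55.6 against 78.2 and 98 in wild-type Treg; -0.56, SE 0.24, adjusted p 0.47), the Entpd1 +53.6 kb peak (0.89, 0.58) and the peak just past P2rx7 (1.44, 0.45). No share of all peaks below that unadjusted cut is given here, so these 3 peaks are not read as changes. At the Nt5e +5.1 kb peak BATFKO Treg scored 245 and 189, overlapping no wild-type library (254 and 249), with a change of -0.22 (SE 0.25, adjusted p 0.99).

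In Foxp3R397W Treg 1 of 62 peaks (1.61%) was called, lower, where 2.63% of all peaks were called (0.776% higher, 1.85% lower). It was the Entpd1 +27.8 kb peak, at 25.3 and 30.7 against 52.5 and 54.8 in its control, a log2 change of -0.92 (SE 0.24, adjusted p 0.032). The call was lost without any 1 of the 4 libraries (0.096 to 0.29). This is the Entpd1 peak that was higher in Treg in each of the 3 pairs above. Over all peaks, 1409 of the 1821 called for Foxp3R397W were called in the opposite direction between wild-type Treg and Tconv. Such a reversal is therefore not particular to Entpd1. An unadjusted p below 0.05 was found for 11 peaks, among them Enpp1 +39.0 kb (101 and 103 against 55 and 57.5; 0.85, adjusted p 0.061) and the distal Adora2a peak (23.1 and 31.4 against 60.5 and 40.1; -0.85, 0.13). edgeR on the recovered reads called 6 peaks. No share of all peaks is given here for edgeR or for the unadjusted cut, so these counts are not read as a result for the loci.

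In DKO Treg, parts of Enpp1 and Nt5e were less open, and the Entpd1 +27.8 kb peak more open, with Foxp3 and BATF together than with the empty virus. The pair of factors called 6 of 62 peaks (9.68%), 1 higher and 5 lower, below the background of 23.3% (12.9% higher, 10.5% lower). Foxp3 alone called 1 peak (background 1.82%, 1.01% higher and 0.814% lower) and BATF alone called 0 (background 3.49%, 3.20% higher and 0.291% lower). With BATF alone 3 peaks had an unadjusted p below 0.05, a count for which no share of all peaks is given here. Same-numbered DKO libraries deviated together (correlations of 0.37 to 0.48), and the fit behind these counts does not block on the number. With a replicate block, more of the 62 peaks were called for Foxp3, for BATF and for both. The median log2 change with both was -0.11 over the 62 peaks and -0.04 over all. The peaks at Pax5 summed to 182 to 191 with mock and 393 to 442 with both factors, and the myeloid list (3 of 4 genes with peaks) to 798 to 1005 and 1414 to 1703. The erythroid genes summed to 226 to 299 with mock and 93.2 to 117 with both. Mean scores were 171 and 58.3 at the strongest Gata1 peak and 12.3 and 9.28 at the strongest Hbb-bt peak. The naive or central T cell list (3 of 3) summed to 12991 to 17394 and 8939 to 11298. The part of these lists in the results was not tested.

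At the Enpp1 +39.0 kb peak mock libraries scored 106 and 136, Foxp3 libraries 99 and 93.6, BATF libraries 116 and 108, and libraries with both 11.7 and 21.9. Only the combination was far below mock, a log2 change of -2.83 (SE 0.25, adjusted p 1e-09), with -0.32 (0.66) for Foxp3 and -0.10 (0.92) for BATF. The combined change departed from the sum of the single changes by -2.41 (SE 0.35, adjusted p 0.0021; 0.088 in a fit of the DKO groups alone), the 1 call among the 62 peaks for that test (background 1.09%, 0.586% higher and 0.506% lower). The +71.5 kb peak fell from 392 and 558 to 158 and 189, by 1.43 (SE 0.21, 7e-06). Both of these peaks were also lower in eTreg than cTreg.

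Peaks in the 3′ part of Nt5e fell as well. At +34.7 kb, mock libraries scored 86.4 and 89, Foxp3 libraries 26.9 and 35.3, BATF libraries 79.2 and 99.8, and libraries with both 22.3 and 17.3. Libraries given Foxp3 lay below those without it. The log2 change was -1.48 with Foxp3 (SE 0.29, adjusted p 0.0058; 0.059 without the second mock library), -2.10 with both (SE 0.29, 2e-06) and 0.02 with BATF (0.99). At +29.7 kb the scores were 98 and 137 with mock, 50.6 and 92.1 with Foxp3, 63.1 and 79.7 with BATF, and 27.2 and 29.9 with both, a change of -1.98 (SE 0.26, 9.7e-07) with both and no call with either alone (0.14 and 0.18). By contrast, the Nt5e +5.1 kb peak scored 177 and 247 with mock and 126 and 234 with both, groups that overlapped (-0.28, SE 0.25, 0.46).

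The Entpd1 +27.8 kb peak rose from 84.3 and 84.1 with mock to 157 and 196 with both factors, by 1.05 (SE 0.24, adjusted p 0.0014). Foxp3 libraries (76.4 and 92.1) and BATF libraries (79.2 and 108) lay on both sides of the mock values. At the second P2rx7 start, whose sequence is shown above, scores were 129 and 123 with mock, 154 and 135 with Foxp3, 150 and 125 with BATF, and 83.5 and 70.2 with both. The change with both was -0.71 (SE 0.23, 0.026), a call lost under quantile scaling (0.062), in a fit of the DKO groups alone (0.061) and without any 1 of the 4 libraries (0.088 to 0.17). Adora2a and Adora2b had no call in any DKO comparison. Of the 6 peaks called with both factors, 4 were called in the same direction from cTreg to eTreg (66.7% of 6 and 21.1% of 19, against 59.0% and 37.2% over all peaks).

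**Figure D5:**
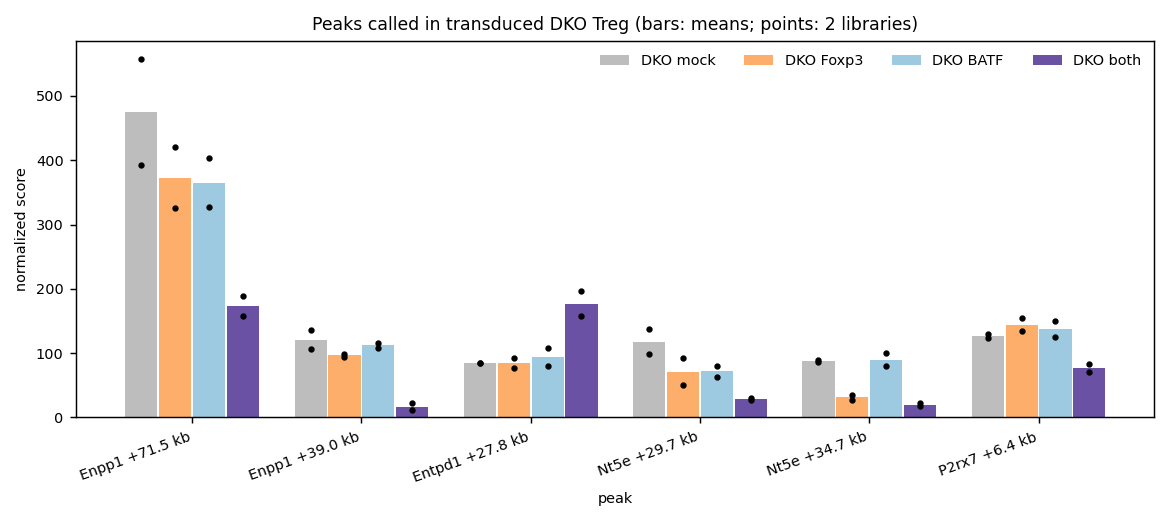
Scores (linear axis from 0) of the 6 peaks called in DKO Treg given Foxp3 and BATF together (horizontal axis) for mock, Foxp3, BATF and both. Bars are means and points the 2 libraries. The Enpp1 +39.0 kb peak is low only with both factors, and the Nt5e +34.7 kb peak is low in both groups that received Foxp3.

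Other genes of purine signalling were counted by role. A peak 2859 bp past Cd38, an ectoenzyme that consumes NAD, had a mean score of 87 ± 3.87 (SD, n = 2) in eTreg and 3.32 ± 1.58 (SD, n = 2) in cTreg, a rise of 4.40 (SE 0.60, limma's adjusted p 9.5e-07). With both factors it held 77 reads against 2 with mock, a scaled ratio of 40 (95% exact counting interval 10.7 to 336). For the counts that follow, the background was 19.7% higher and 17.4% lower from cTreg to eTreg, and 20.7% and 19.6% from Tnaive to Teff. The NAD route, to which Cd38 belongs (27 peaks, 3 genes), had 5 higher and 5 lower in eTreg than cTreg, and 12 higher and 1 lower in Teff than Tnaive. With both factors against mock it had 11 higher and 0 lower (background 12.9% and 10.5%). The other P2 receptors and ATP release channels (57 peaks, 12 genes) had 5 higher and 20 lower in eTreg than cTreg, and 3 higher and 24 lower in Teff than Tnaive. P2ry12, an ADP receptor, had a peak that fell by 2.73 (SE 0.23, 1.9e-10) in the Treg step and by 3.34 (SE 0.23, 1.5e-12) in the conventional step. Adenosine removal and transport (47 peaks, 7 genes) was even in the Treg step, with 10 higher and 9 lower. A peak in Ada, which deaminates adenosine, fell by 3.48 (SE 0.47, 8.1e-07) there, from a mean score of 45.8 to 4.07. Adora1, the other adenosine receptor with peaks (3), had 2 that rose in eTreg and 0 that fell. The larger rise was 3.74 (SE 0.50, 6.3e-07), from 3.22 in cTreg to 47.7 in eTreg, and the other went from 6.97 to 18.6. The lower values of these peaks are near the floor, and no counting interval is given for them. Other nucleotide ectoenzymes (22 peaks) had 5 higher and 1 lower in the Treg step, and cyclic AMP signalling genes (161 peaks) had 28 higher and 40 lower.

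Genes on other chromosomes with the most similar peaks were sought by Pearson's r over the 13 group means, which share libraries, protocol sets and scaling, among 33270 candidate peaks. For Nt5e +5.1 kb these were Rasl11a, Prelid2 and Dnajc5b (r 0.96 each). For Enpp1 +39.0 kb they included Efcab11 (0.96) and Satb1 (0.95), and for Entpd1 +27.8 kb Plet1 (0.94), Ssbp3 (0.93) and Ubl3 (0.92). The distal Adora2a peak was closest to Immp2l (0.96), Bcas1 (0.96) and Sema6d (0.94), and the Adora2b peak to Tap2 (0.97), Dennd4a (0.95) and Zfp598 (0.95). P2rx7 +1.6 kb was closest to Nosip (0.98), Il2rb (0.97) and Lax1 (0.97).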

How the data were processed

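Open chromatin was profiled with the ATAC-seq and omniATAC-seq protocols. The deposited signal of each peak and library was taken as given. Per the submitters' processing notes, Bowtie2 2.4.1, MACS2 2.2.7.1, DiffBind 3.4.11 or 3.0.15 and edgeR 3.36.0 or 3.38.4 were used with mm10; the role of each is not given in the sources used here. The deposited signal values proved to be whole reads divided by 1 factor per library (100.0% of values whole within 0.02 reads), so the scaling is by library and assumes that libraries are comparable in total. Of 69316 peaks, 69142 are 401 bp wide.

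Each peak was given to its closest protein-coding gene body (RefSeq, GRCm38.p6) within 100 kb. The members and gene lists were chosen with earlier results of these data known. Scores were tested as log2(score + 1) with limma 3.58.1 (trend and robust, R 4.3.3), all 13 groups in 1 fit with 13 residual degrees of freedom, and Benjamini-Hochberg adjustment over all peaks within each of 10 comparisons of 2 groups and 2 differences of differences. Fold changes are on the log2(score + 1) scale, which understates changes of low peaks. Counting intervals cover counting error only. In simulated data for eTreg against cTreg, 55 of 100 peaks changed 2-fold and 100 of 100 changed 4-fold were recovered, with 12 false calls among 69316 peaks. Only these peaks were changed, all with a mean score above the table median, and all peaks shared 1 dispersion. In the real comparison 37.1% of all peaks were called, so these figures do not carry over to it or to weaker peaks.

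Peaks named are, for each gene, the strongest, the most variable above the table median, those over a start, and the best call in each direction of each comparison; the Nt5e peak at -38.7 kb and the P2rx7 and Entpd1 peaks of the BATFKO comparison were named after their values were seen. The columns called Foxp3WT Treg were read as the Foxp3R397W control because the table has no Foxp3KO column. Alternatives were a pseudocount of 5, a minimum mean score of 10, quantile scaling, edgeR 4.0.16 (quasi-likelihood) on the recovered reads, a fit of the compared groups alone, a replicate block, leaving out each library, the 22-library table, and a 20 kb limit. A few genes of the lists are not reported here.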

Additional observations from a re-analysis of the deposited data

Results flagged for a closer look

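At 3 peaks the effector step differed between lineages by a test of the difference itself (limma's adjusted p over all peaks): P2rx7 +1.6 kb (-1.54, SE 0.36, adjusted p 0.011), P2rx7 +36.7 kb (-3.55, SE 0.64, 0.00094) and Nt5e -29.6 kb (-1.97, SE 0.53, 0.027), each the log2 change from cTreg to eTreg minus that from Tnaive to Teff. The P2rx7 +36.7 kb value rests on 2 reads in Tnaive, and its size depends on the pseudocount. At the Enpp1 +39.0 kb peak the change with Foxp3 and BATF together departed from the sum of the single changes by -2.41 (SE 0.35, 0.0021), with 11.7 and 21.9 in the 2 libraries given both against 93.6 to 136 in the other DKO libraries.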

How the results depend on the processing

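Of the recomputed counts of called peaks, 113 stayed within 1.5 times the reported count and 34 did not. The library names matter most: with the 22-library table and its own names, 3 peaks were called for eTreg against cTreg, 4 for Teff against Tnaive, 0 each for cTreg against Tnaive, eTreg against Teff and the difference of steps, and 20 for Foxp3R397W, while Treg against Tconv gave 25. The same names turned 23 named changes: for eTreg against cTreg, Nt5e +5.1 kb -0.51, Enpp1 +39.0 kb 0.83, P2rx7 +2.3 kb -0.58, Entpd1 +53.6 kb -0.39, Nt5e +34.7 kb 0.58, Entpd1 +96.0 kb 0.02 and P2rx7 +54.7 kb 0.18; for Teff against Tnaive, Nt5e +5.1 kb -0.40, Enpp1 +39.0 kb 0.89, P2rx7 +1.6 kb -0.49, Entpd1 +53.6 kb -0.49, P2rx7 +25.3 kb 0.88, Nt5e +34.7 kb 1.13, Entpd1 +124.9 kb 0.12 and Adora2a in the body -0.93. For cTreg against Tnaive it turned P2rx7 +36.7 kb (-0.18) and distal Adora2a (-0.07); for eTreg against Teff, Nt5e -34.6 kb (-0.08), P2rx7 +9.5 kb (0.15), distal Adora2a (-0.17) and Entpd1 +27.8 kb (-0.23); for the difference of steps, P2rx7 +36.7 kb (0.28); and for Foxp3R397W, Entpd1 +27.8 kb (0.11). These alternatives compare other libraries. The Foxp3R397W count was 2 with a pseudocount of 5, 6 with edgeR and 5 in a fit of its groups alone. Quantile scaling gave 6 calls for the difference of steps, the 20 kb limit left 7 for eTreg against Teff (fewer peaks counted), and a fit of the DKO groups alone left 0 departures from additivity. Replicate numbers are shared, and same-number deviations correlated by 0.11 to 0.48, and by 0.37 to 0.48 among the DKO groups. The labels do not say whether a number marks a shared animal, batch or day, and each comparison has only 2 pairs. A replicate block gave 6 calls for the difference of steps, 2 for Foxp3, 1 for BATF, 11 for both factors and 2 for the departure. It kept the other counts within 1.5 times. No paired analysis was possible for Foxp3R397W because its control columns carry no sample number. Leaving out single libraries gave 11 to 15 calls for Treg against Tconv, 9 to 15 calls for eTreg against cTreg, 21 to 25 calls for Teff against Tnaive, 12 to 15 calls for cTreg against Tnaive, 6 to 7 calls for eTreg against Teff, 1 to 3 calls for the difference of steps, 0 for BATFKO, 0 for Foxp3R397W, 0 to 2 calls for DKO Foxp3, 0 to 1 calls for DKO BATF, 5 to 8 calls for both factors and 1 for the departure; a lone library in a group was assumed to vary like the other groups. Otherwise the cause was not tested. The median SE was 0.27 for these peaks (0.34 over all). In the simulation, with few changed peaks and all of them above the table median, 55 of 100 changes of 2-fold were recovered.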

Other observations

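The 22-library table holds 4 libraries that have no match in the 26-library table, called Tnaive and Teff there; the values of the 2 tables were scaled separately, so levels are not compared across them. At the peak that matches Nt5e +5.1 kb they scored 368 and 412 in the libraries called Tnaive and 290 and 300 in those called Teff. At Enpp1 +39.0 kb the scores were 121 and 128 against 209 and 258, and at Entpd1 +27.8 kb 130 and 137 against 77.2 and 81.8. At the distal Adora2a peak they were 152 and 113 against 75.6 and 74.2, at Adora2b 177 and 199 against 193 and 188, and at P2rx7 +1.6 kb 267 and 302 against 178 and 227. At 5 of these 6 peaks (all but Adora2b, where the 2 pairs overlap) the libraries called Tnaive and Teff in this table stand in the opposite order to those so named in the 26-library table. Under the names of the 26-library table, Foxp3KO and its control are the only sample groups left without libraries. These 4 libraries may therefore be that pair and not Tnaive and Teff, which was not tested. The opposite order is thus not read as a result for Tnaive and Teff.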
